A study of Homo sapiens with 6 samples.

Results

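Cancer-testis antigens are proteins whose genes are normally read in germ cells of the testis and in few other adult tissues, and that many tumours, melanoma among them, switch on. The genes described here are those of the MAGEA, MAGEB, MAGEC, GAGE, PAGE, XAGE, SSX, CTAG, SPANX, CT45A and CT47A families, chosen by the pattern of their symbols alone, and PRAME. That rule uses no expression value. The rule found 103 of the 25343 gene lines of the count table. Of these 103 members 56 had 0 counts in every library, 23 had a count but too few for a test, and 24 were tested.

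The study exposed cultures of A375, an established human melanoma line, to the histone deacetylase inhibitor panobinostat or to vehicle alone, and sequenced bulk RNA. Histone deacetylases take acetyl groups off histones, and panobinostat blocks them. The 3 vehicle libraries came from parental A375 cells given PBS for 24 h, and the 3 panobinostat libraries from the same parental line given 50 nM of the compound for 24 h. One line and one dose were used, so the values describe A375 only, and nothing in the labels says whether the 3 libraries of a group were separate cultures. A p-value here therefore reflects only how far these libraries differ from one another, and that may be technical scatter.

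Most of these families sit on the X chromosome in tandem arrays of near-copies, while PRAME lies on chromosome 22. Outside the germ line their CpG-bearing promoters are kept silent mainly by DNA methylation, with help from histone methylation and from a Polycomb complex, PRC1.6, that sits on many germ cell promoters. Peptides cut from the proteins are shown on MHC class I and can be recognised by T cells, which is how several of them were found. MAGE proteins share a domain that binds E3 ubiquitin ligases, the GAGE, PAGE and XAGE proteins are small, acidic and largely unfolded, SSX proteins are nuclear repressors, and PRAME is a substrate receptor of a cullin ubiquitin ligase.

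In vehicle, a small number of these genes had high counts in A375, and the counts of the rest were near or at 0. For members that share most of their sequence with a copy, a low count does not show that the gene was silent. MAGEA4, which is a target of engineered T cells, was read at 709, 731 and 761 CPM (reads scaled to a common library total) in the 3 vehicle libraries, and held 47.0% of all member counts on average. PRAME stood at 211, 204 and 207 CPM and MAGEC2 at 163, 162 and 166 CPM. Counts per library measure a gene's length as well as its abundance, so levels of different genes were compared per kilobase of exon (GENCODE v29). On that scale MAGEA4 led in vehicle at 238 CPM per kb, then PAGE5 at 161, MAGEC2 at 82.1, PRAME at 55.0, MAGEA12 at 44.2, PAGE2 at 42.3, MAGEA3 at 39.9 and MAGEA6 at 28.6 CPM per kb. All members together took 0.153 to 0.158% of the counts of a vehicle library and 0.131 to 0.135% of a panobinostat library. Summed over members that is 1559.6 ± 30.9 CPM with vehicle and 1328 ± 12.01 CPM with panobinostat (SD, n = 3 each). In bulk RNA a smaller share of cells that express a gene and less RNA per cell cannot be told apart.

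**Figure D1:**
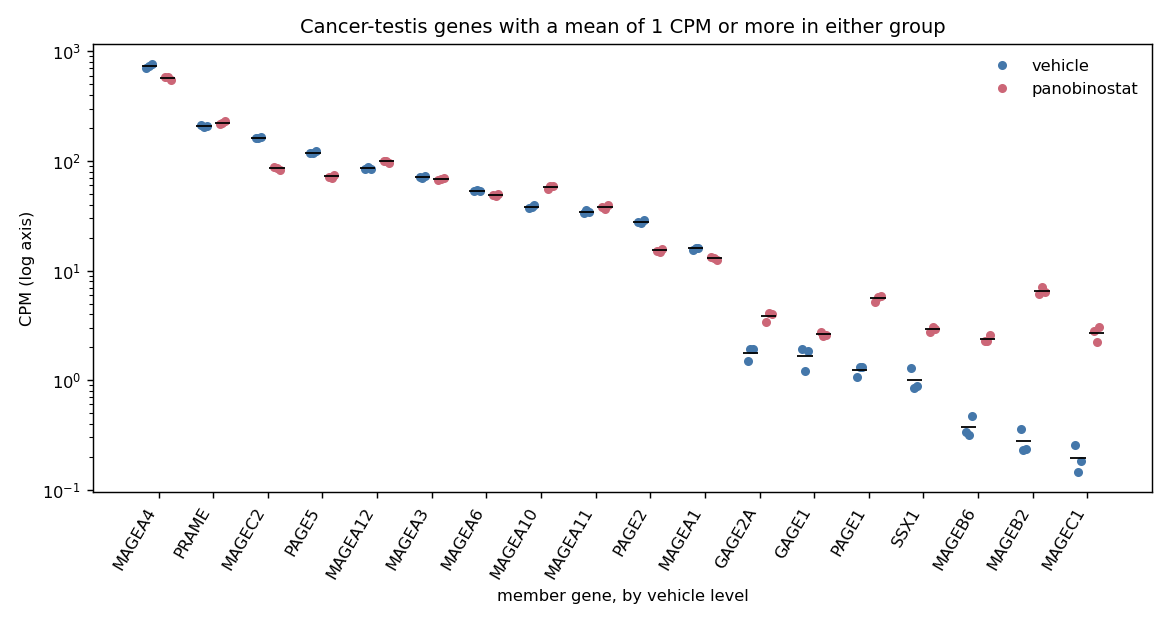
CPM of each member with a mean of 1 CPM or more in either group, on a log axis, in order of its vehicle level. Points are libraries (blue vehicle, red panobinostat) and black bars are group means of 3 libraries. The 11 genes at the left, from MAGEA4 to MAGEA1, differ little between the groups on this axis, whereas MAGEB6, MAGEB2 and MAGEC1 at the right rise from under 1 CPM to 2.38, 6.49 and 2.70 CPM.

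With panobinostat the genes that were already above 10 CPM moved by less than 2-fold, from MAGEC2 at -0.94 to MAGEA10 at 0.60 on the log2 scale, and several that were nearly silent rose, PAGE1 by 4.53-fold and MAGEB2 by 23.2-fold. Of the 24 tested members 16 were higher, 7 were lower and MAGEA3 did not pass the threshold (edgeR quasi-likelihood F test, Benjamini-Hochberg adjusted p under 0.05 over all 15499 genes tested). Panobinostat changed most genes in these cells: 82.8% of all genes tested were called, 41.8% higher and 41.0% lower, so a call by itself says little of any member. Vehicle and panobinostat values were fully separated in 24 of 24 tested members, against 83.4% of all genes. Of the 24, 7 entered the test through the panobinostat libraries alone, as described below. For these the separation was largely set by how they entered, so the 2 shares are not a like comparison. The median log2 fold change was 0.63 over the tested members and 0.0085 over all genes tested, and setting PAGE4, which had no vehicle count, to its lower bound left the member median at 0.63.

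A member that is near 0 in vehicle enters the test only if it is higher with panobinostat, so the 24 tested genes are not a neutral sample of the 103. Of the 24, 7 passed the low-count filter (about 0.277 CPM in 3 libraries) through the panobinostat libraries alone: MAGEA8, MAGEB2, MAGEB18, MAGEC1, GAGE12J, PAGE4 and SPANXN3. The 17 that passed it in all 6 libraries held 9 higher and 7 lower genes, where 37.7% and 44.6% of all genes past the filter in all libraries were called higher and lower, and their median log2 fold change was 0.11 against -0.064 for all such genes.

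Counts of calls by level follow. Of the 11 tested members with a mean over the 6 libraries of 10 CPM or more, 4 were higher and 6 lower, beside 35.6% and 49.6% of all genes at that level, and their median log2 fold change of -0.13 stood beside -0.12 for all genes. Of the 7 members between 1 and 10 CPM all 7 were higher, beside 48.4% of genes at that level, and 5 of these 7 passed the filter in all 6 libraries. The other 2, MAGEB2 and MAGEC1, passed through panobinostat alone. Under 1 CPM 5 of 6 were higher, beside 59.9% of genes, but those 5 are genes that could pass only by being higher.

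**Figure D2:**
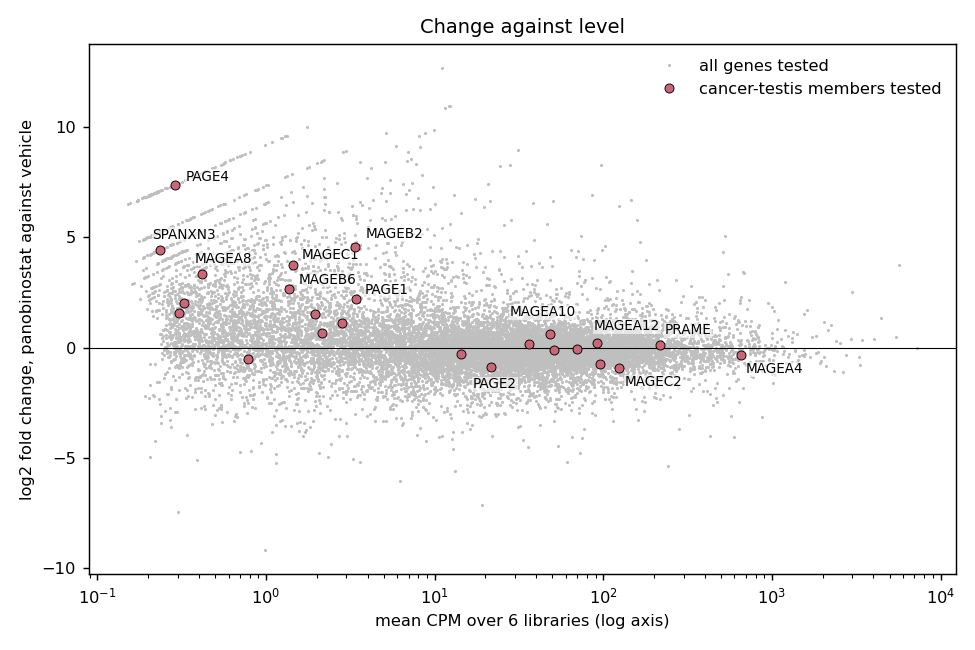
Log2 fold change (panobinostat against vehicle) against mean CPM over the 6 libraries (log axis) for every gene tested (grey) and the 24 tested members (red). Members at 10 CPM or more lie within the grey band around 0, between -0.94 for MAGEC2 and 0.60 for MAGEA10, and members from 1 to 10 CPM all lie above 0. The slanting rows of grey points at the upper left are genes with 0 or few vehicle counts, whose fitted values, like that of PAGE4, depend on the prior count.

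The MAGEA genes, an array near the end of the long arm of the X chromosome, went in both directions: of 13 members 9 were tested, 4 were higher, 4 were lower and MAGEA3 did not pass. Their promoters are shown because these genes share a short string next to their start sites and still were called in different directions. The stretches run from 120 bases before to 20 bases after the RefSeq start (GRCh38.p14), 5′ to 3′ on the gene's strand, with GGATGTG in capitals. The letters GGATGTG were picked after the sequences had been seen, and a match is not evidence that a factor binds.
MAGEA4, chrX:151912354-151912493, plus strand: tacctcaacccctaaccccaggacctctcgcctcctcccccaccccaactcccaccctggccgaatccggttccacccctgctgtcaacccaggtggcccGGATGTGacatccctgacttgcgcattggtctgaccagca
MAGEA8, chrX:149881063-149881202, plus strand: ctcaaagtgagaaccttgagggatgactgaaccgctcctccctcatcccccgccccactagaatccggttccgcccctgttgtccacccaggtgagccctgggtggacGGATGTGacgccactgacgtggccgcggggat
MAGEA12, chrX:152733637-152733776, plus strand: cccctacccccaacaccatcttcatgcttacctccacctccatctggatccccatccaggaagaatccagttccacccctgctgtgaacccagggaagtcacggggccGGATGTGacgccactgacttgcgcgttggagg
MAGEA3, chrX:152698674-152698813, plus strand: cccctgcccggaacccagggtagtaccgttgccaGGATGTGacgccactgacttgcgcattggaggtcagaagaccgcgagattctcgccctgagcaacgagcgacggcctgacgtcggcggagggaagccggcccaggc
All 10 MAGEA promoters found in RefSeq held GGATGTG, in each case on the gene's own strand and once, with its first base 12 to 86 bases before the start. In MAGEA4 it began 20 bases before the start, in MAGEA8 and MAGEA12 12 and in MAGEA3 86. For MAGEA8 the bases after the start were found near the beginning of a GENCODE v29 transcript. For MAGEA4, MAGEA12 and MAGEA3 they were not, so those distances rest on the RefSeq start alone. Those 4 genes went lower, higher, higher and not past the threshold.

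MAGEA4 fell. It was read at 709, 731 and 761 CPM with vehicle and 588, 582 and 549 CPM with panobinostat, a log2 fold change of -0.36 (SE 0.038; edgeR adjusted p = 1.69e-07). Every panobinostat library lay below every vehicle library, and the gene's mean share of member counts went from 47.0% to 43.2%. MAGEA1, the antigen through which the family was discovered, went from 15.5, 16.2 and 16.2 CPM to 13.3, 13.0 and 12.5 CPM (log2 -0.30, SE 0.065).

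MAGEA10 and MAGEA12 rose. MAGEA10 stood at 37.6, 38.0 and 39.5 CPM with vehicle and 55.6, 59.5 and 58.9 CPM with panobinostat, a log2 fold change of 0.60 (SE 0.049; edgeR adjusted p = 5.01e-09). Its exons overlap a readthrough transcript, MAGEA10-MAGEA5, on the same strand, so reads of both cannot be separated in the shared part. MAGEA12 went from 85.3, 88.2 and 84.1 CPM to 101, 99.4 and 96.6 CPM, a smaller change of 0.21 (SE 0.041). MAGEA8 was the only MAGEA gene to go from near silence to a clear signal: 4, 1 and 3 counts with vehicle became 30, 26 and 24 counts, a 10.2-fold rise in CPM (log2 3.35, SE 0.38). It still stood at only 0.761 CPM.

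MAGEA3 and MAGEA6 encode near-identical proteins that work with the ubiquitin ligase TRIM28, and are often treated as one antigen. MAGEA3 was read at 71.5, 70.2 and 72.2 CPM with vehicle and 67.6, 68.2 and 69.4 CPM with panobinostat. The ranges were close without overlapping, and the log2 fold change of -0.060 (SE 0.042; edgeR adjusted p = 0.198) did not pass. MAGEA6 was read at 52.8, 53.9 and 53.3 CPM and 48.5, 47.9 and 49.9 CPM, a log2 fold change of -0.13 (SE 0.046; edgeR adjusted p = 0.0156). Of the 100-base windows of their transcripts only 65.1% of MAGEA3 and 67.0% of MAGEA6 occur in no other gene, and their 300-base promoters are the same at 300 of 300 positions. With both summed, the level went from 125 ± 0.753 to 117 ± 1.82 CPM (SD, n = 3 each), a log2 fold change of -0.089 (SE 0.038; edgeR adjusted p = 0.0382). These small falls depend on scaling: with upper quartile factors the log2 fold change of MAGEA3 was 0.060 and the log2 fold change of MAGEA6 was -0.0086, neither past the threshold.

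The calls of MAGEA11 and MAGEA2 were marginal, each being lost when any of several libraries was left out. MAGEA11, whose protein binds the androgen receptor, went from 33.7, 35.5 and 34.4 CPM to 38.3, 36.8 and 39.6 CPM (log2 0.15, SE 0.053), and its call was lost without the library of vehicle replicate 1, panobinostat replicate 1 or panobinostat replicate 3. MAGEA2, which went from a mean of 0.914 CPM to 0.642 CPM (log2 -0.51, SE 0.22), lost its call without vehicle replicate 2 or 3 or panobinostat replicate 1 or 2, and MAGEA6 lost its own without panobinostat replicate 1 or 2. Only 10.6% of the MAGEA2 windows are its own, 89.5% being shared with MAGEA2B, so the value belongs to the pair. MAGEA2B, MAGEA5, MAGEA9 and MAGEA9B had 0 counts in all 6 libraries, and only 10.3 to 46.9% of their windows are their own.

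**Figure D3:**
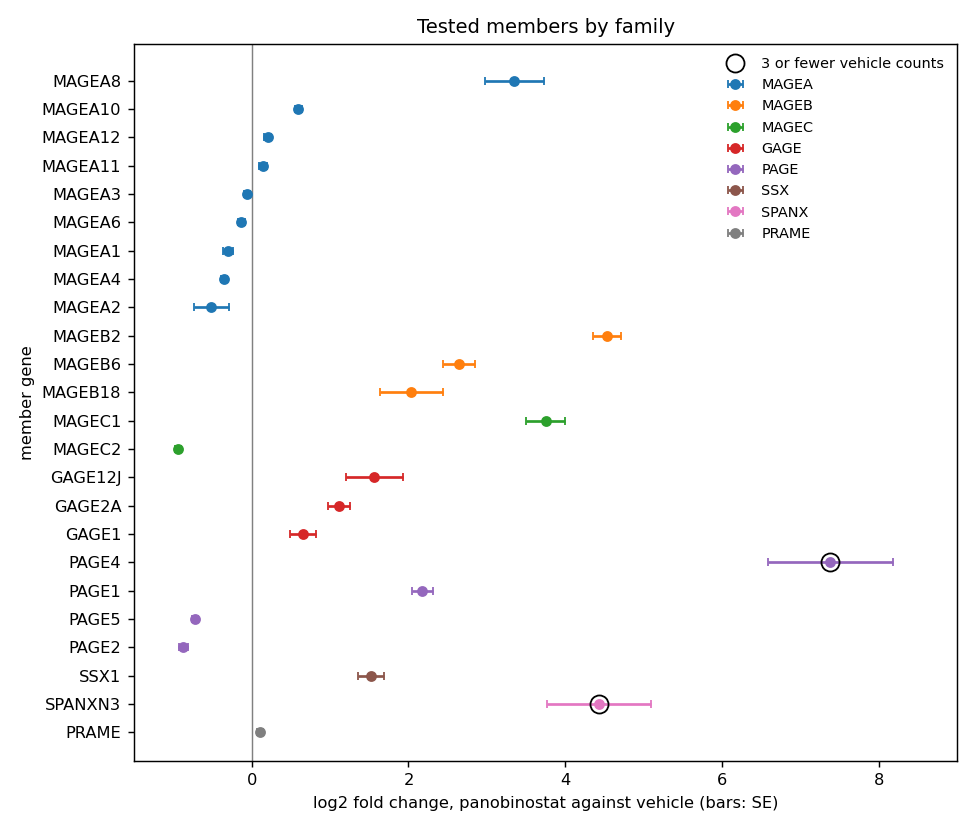
Log2 fold change of each tested member (panobinostat against vehicle, x axis), ordered by family and by value within it, with the SE as a bar. MAGEA, MAGEC and PAGE have members on both sides of 0, while every tested MAGEB, GAGE, SSX and SPANX member lies to the right. The ringed points, PAGE4 and SPANXN3, had 0 and 2 vehicle counts, and their position depends on the prior count of the fit.

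The MAGEB genes, on the short arm of the X chromosome, were close to silent in vehicle. All 3 that were tested rose, beside 41.8% of all genes tested, but MAGEB2 and MAGEB18 passed the filter through the panobinostat libraries alone and could be tested only by being higher. MAGEB2, whose protein is known for acting on stress granules in male germ cells, gave 14, 8 and 9 counts in the vehicle libraries and 221, 258 and 204 in the panobinostat libraries. In CPM that is 0.361, 0.232 and 0.233 against 6.11, 7.06 and 6.31, a 23.2-fold rise (log2 4.53, SE 0.18; edgeR adjusted p = 2.03e-13). No other tested member with at least 3 counts in every vehicle library rose as far. MAGEB6 went from 0.336, 0.319 and 0.466 CPM to 2.29, 2.27 and 2.57 CPM (log2 2.65, SE 0.20), and all 3 of its panobinostat libraries held 83 counts. MAGEB18 went from 4, 3 and 7 counts to 14, 18 and 23 counts (log2 2.04, SE 0.40).

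MAGEB1, which lies next to MAGEB4 in the array and overlaps it, had 1 vehicle count and 28 panobinostat counts in all, a ratio of 29.8 with an exact 95% interval of 4.93 to 1218, and was not tested. MAGEB3, in the same array, and MAGEB5, which lies apart from it next to MAGEB6, had 0 counts in all libraries. This was so although 100% of their 100-base windows are their own. The MAGEB2 promoter is shown because this gene rose most among tested members with at least 3 counts in every vehicle library, and holds GGATGTG, in capitals, at 63 and 17 bases before its start.
MAGEB2, chrX:30215443-30215582, plus strand: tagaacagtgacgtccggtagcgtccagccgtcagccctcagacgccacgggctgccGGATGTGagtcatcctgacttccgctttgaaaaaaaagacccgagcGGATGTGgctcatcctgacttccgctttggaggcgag
Of the 9 MAGEB promoters only those of MAGEB2 and MAGEB16 held the string. MAGEB16 had 1 vehicle count and 9 panobinostat counts, and MAGEB6 and MAGEB18, which rose, did not hold it.

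The adjacent genes MAGEC1 and MAGEC2 went in opposite directions. MAGEC2, which binds TRIM28 and is a common antigen of melanoma, fell from 163, 162 and 166 CPM to 87.6, 85.9 and 82.7 CPM, a 1.91-fold fall (log2 -0.94, SE 0.039; edgeR adjusted p = 5.07e-13). It was the largest fall of any tested member. MAGEC1, the adjacent gene, rose from 0.258, 0.145 and 0.181 CPM to 2.82, 2.22 and 3.06 CPM, a 13.5-fold rise (log2 3.75, SE 0.25; edgeR adjusted p = 2.68e-10). MAGEC3 had 5 vehicle and 12 panobinostat counts and was not tested. The promoters of both genes hold GGATGTG, in capitals, close to the start, and are shown because of those opposite directions.
MAGEC1, chrX:141903774-141903913, plus strand: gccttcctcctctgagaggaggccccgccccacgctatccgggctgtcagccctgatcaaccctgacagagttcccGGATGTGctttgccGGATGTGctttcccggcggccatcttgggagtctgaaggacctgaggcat
MAGEC2, chrX:142205271-142205410, minus strand: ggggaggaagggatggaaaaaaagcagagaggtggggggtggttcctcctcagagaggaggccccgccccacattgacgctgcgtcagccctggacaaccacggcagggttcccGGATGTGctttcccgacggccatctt
In MAGEC1 the string began 44 and 30 bases before the start, and in MAGEC2 6 bases before it. A further match in MAGEC1, outside the printed stretch, lies on the opposite strand 185 bases before the start.

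The GAGE genes are a tandem array of near-copies on the short arm of the X chromosome, and their reads can rarely be given to 1 copy. Of 22 members 17 had 0 counts everywhere and 3 were tested, all 3 higher, beside 41.8% of all genes tested. Of these, GAGE12J passed the filter through the panobinostat libraries alone and could be tested only by being higher. GAGE2A went from 1.497, 1.94 and 1.92 CPM to 3.43, 4.13 and 3.99 CPM (log2 1.11, SE 0.14), GAGE1 from 1.91, 1.22 and 1.84 CPM to 2.76, 2.52 and 2.60 CPM (log2 0.65, SE 0.16), and GAGE12J from 7, 5 and 5 to 14, 15 and 19 counts (log2 1.57, SE 0.36). Own windows made up 46.6% of GAGE2A, 88.7% of GAGE1 and 22.6% of GAGE12J, and GAGE1 also overlaps GAGE2A. Summed over all 22 copies, of which 5 had counts, the level rose from 3.60 ± 0.292 to 6.98 ± 0.337 CPM (SD, n = 3 each), a log2 fold change of 0.95 (SE 0.10; edgeR adjusted p = 1.17e-07). The sum holds only reads that were counted for some copy. Whether reads that fit several copies were counted is not known.

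The PAGE genes are kin of the GAGE genes but differ more from one another, and of 6 members 2 were lower and 2 higher. PAGE5 and PAGE2, the abundant ones, fell: PAGE5 went from 118, 118 and 122 CPM to 71.6, 70.3 and 74.9 CPM (log2 -0.72, SE 0.042; edgeR adjusted p = 4.21e-11). PAGE2 went from 27.7, 27.2 and 28.9 CPM to 15.2, 14.8 and 15.9 CPM (log2 -0.87, SE 0.061), and its sum with PAGE2B fell alike (log2 -0.86, SE 0.060). PAGE1 rose from 1.06, 1.30 and 1.32 CPM to 5.14, 5.74 and 5.82 CPM, a 4.53-fold rise (log2 2.18, SE 0.13; edgeR adjusted p = 7.48e-11).

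PAGE4, known as a disordered protein of the prostate, had no count in any vehicle library and 16, 23 and 21 counts with panobinostat. Set against a floor of 3 counts per vehicle library, it was at least 7.11-fold higher. PAGE3 had 1 vehicle count and 13 panobinostat counts (ratio 13.8, exact 95% interval 2.08 to 588) and PAGE2B had 10 and 15. Promoters of both genes that rose and of the most abundant gene that fell are shown, with CACGTG, letters known as an E-box, in capitals.
PAGE1, chrX:49695965-49696104, minus strand: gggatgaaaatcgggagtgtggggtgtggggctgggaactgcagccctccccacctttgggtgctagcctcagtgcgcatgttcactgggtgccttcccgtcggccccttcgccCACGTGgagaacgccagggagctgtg
PAGE4, chrX:49829140-49829279, plus strand: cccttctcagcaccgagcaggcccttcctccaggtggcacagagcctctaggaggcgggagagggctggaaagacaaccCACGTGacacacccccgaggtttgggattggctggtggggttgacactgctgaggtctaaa
PAGE5, chrX:55220226-55220365, plus strand: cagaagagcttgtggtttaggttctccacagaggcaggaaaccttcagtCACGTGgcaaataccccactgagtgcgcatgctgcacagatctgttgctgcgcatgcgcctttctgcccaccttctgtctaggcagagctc
CACGTG stood 6, 41 and 71 bases before the start of PAGE1, PAGE4 and PAGE5. CACGTG was in 4 of 6 PAGE promoters: those of PAGE1 and PAGE4, which rose, PAGE5, which fell, and PAGE2B, which was not tested. It was also in 12 of 12 GAGE windows, where it lay after the start. For PAGE4 the bases after the start were not found near the beginning of a GENCODE v29 transcript, so its distance rests on RefSeq alone.

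SSX1 is a nuclear repressor best known as a partner in the gene fusions of synovial sarcoma. It rose from 1.29, 0.840 and 0.881 CPM to 2.76, 3.06 and 2.91 CPM, a 2.88-fold rise (log2 1.53, SE 0.17; edgeR adjusted p = 2.36e-07). It was the only SSX gene with enough counts for a test. SSX6 had 3 vehicle and 38 panobinostat counts (ratio 13.5, exact 95% interval 4.28 to 68.3), and SSX5 had 5 and 29. SSX2, SSX2B, SSX4 and SSX4B, which are near-copies in pairs, had 0 counts everywhere, also as sums of the pairs.

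SPANXN3, of a family of sperm nuclear proteins, had 2 vehicle counts and 48 panobinostat counts, split 13, 25 and 10. The ratio was 25.5 with an exact 95% interval of 6.70 to 217, and the gene was called higher. It was the only tested member of the SPANX family, where 5 of 10 genes had 0 counts. XAGE3 had 11 vehicle and 21 panobinostat counts, and CTAG2 had 17 in each group. CTAG1A and CTAG1B, the copies that encode the antigen NY-ESO-1, had 0 counts in all 6 libraries, alone and summed. The 12 CT47A genes were all at 0, and of the 6 CT45A genes 1 had counts, 5 with vehicle and 1 with panobinostat. At the depth of these libraries 3 counts are worth 0.0774 to 0.0928 CPM, which is the level that a count of 0 still allows, by counting error alone.

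PRAME, which represses retinoic acid receptor signalling and marks many melanomas, was slightly higher. It stood at 211, 204 and 207 CPM with vehicle and 219, 222 and 231 CPM with panobinostat, a log2 fold change of 0.11 (SE 0.037; edgeR adjusted p = 0.0106). The panobinostat range lay just above the vehicle range. The call was lost without vehicle replicate 2, where the log2 fold change of PRAME was 0.080, or panobinostat replicate 3, where it was 0.085. PRAME overlaps a gene on the opposite strand by 19 bases and MAGEA4 overlaps MAGEA4-AS1 by 172 bases. No source used here gives the strand setting, so reads in those stretches cannot be assigned.

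Members below the filter were not tested. The 23 members with some counts but no test summed to 29, 26 and 25 counts in the vehicle libraries and 78, 85 and 76 in the panobinostat libraries. Of them 18 had more counts with panobinostat, 3 had fewer and 2 had the same number. Across all genes, libraries given panobinostat also detected more genes, 19100 to 19398 against 17566 to 17760 genes with a count, at total counts whose ranges overlapped.

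Many members share almost all of their sequence with a copy. Of the 88 members matched to GENCODE v29 by symbol, 45 had no counts, and 34 of these 45 had under 20% of 100-base windows of their own, so that a read of that length would fit several copies. Another 6 had 80% or more of their own. Among the 19 matched members with counts but no test 14 had 80% or more, and among the 24 tested 19 had. No source used here gives the read length or how reads with several matches were counted. For a gene with few windows of its own, a transcript that was absent and reads that were not assigned cannot be told apart.

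**Figure D4:**
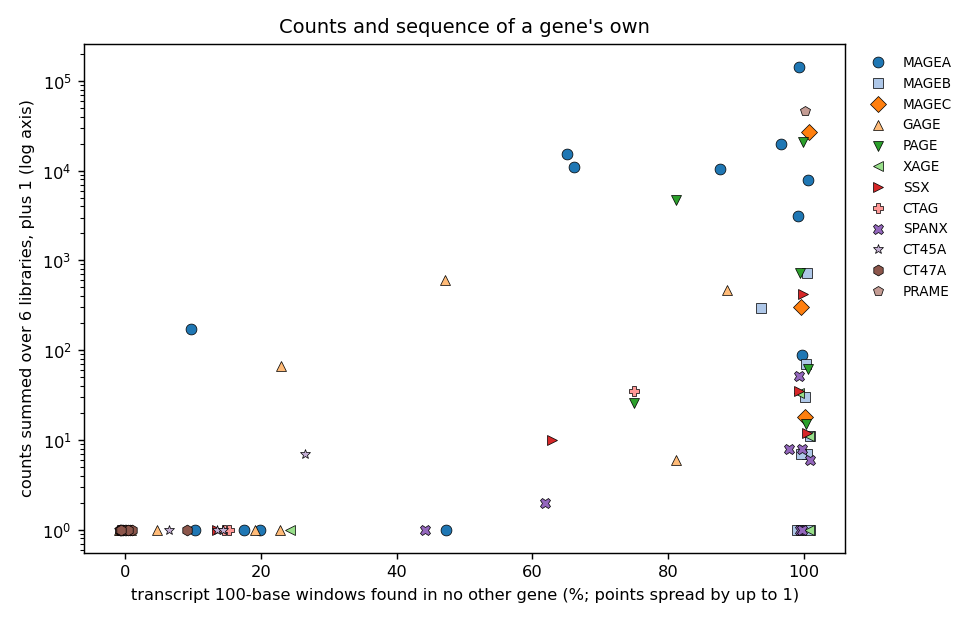
Counts summed over the 6 libraries, plus 1 (log axis), against the percentage of a gene's 100-base transcript windows that occur in no other gene, for the 88 members matched to GENCODE v29, with 1 marker per family. Points are spread sideways by up to 1 so that they do not hide each other. The dense group at the lower left, mostly CT47A and GAGE copies, has no counts and almost no sequence of its own, and 19 of the 24 tested members lie at 80% or more.

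Over the 62 members with a RefSeq promoter, a window of 300 bases from 250 before to 50 after the start, the median number of CpG pairs was 10 (range 1 to 21), against 14 over all 35114 promoters. The higher members had a median of 13 and the lower ones 11.5, from 15 and 6 promoters. Motifs were sought on both strands and counted once for each of the 53 distinct member sequences, since copies repeat each other. Near-copies whose windows differ at any base, as in the GAGE family, were still counted apart. GGATGTG was in 26.4% of distinct member promoters and 4.29% of all promoters, and among tested members in 5 of 15 higher and 4 of 6 lower ones. These letters were picked after member promoters had been seen, so their excess over all promoters is not a test. CACGTG was in 20.8% of distinct member promoters and 7.26% of all. TCCCGC, the E2F core, was in 28.3% and 26.9%, CCGGAA, an ETS core, in 5.66% and 17.2%, and TATAAA in 0 of 53 and 11.5%. These are counts of letters in 1 window per gene, and 33 of the 62 windows read along the gene strand into an annotated transcript.

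Genes next to each other did not always share a direction. RefSeq order placed 86 members in 15 runs. In the run with GAGE12J, GAGE2A, GAGE1, PAGE1 and PAGE4 every tested member was higher, the gene after it, USP27X, was lower (log2 -0.40), and the gene before it, PPP1R3F, was higher (1.45). PAGE2 and PAGE5, both lower, lie on either side of FAM104B, which was higher (0.71), and MAGEH1 beyond them was higher too (0.64). Within the MAGEA run the receptor genes GABRE (3.66) and GABRA3 (-0.48) went in opposite directions. CSAG1, which is itself a cancer-testis gene, was lower (-0.32) next to MAGEA12, which was higher (0.21). Of 47 other genes adjacent to members 24 were tested, 14 were higher and 4 lower, beside 41.8% and 41.0% of all genes tested.

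**Figure D5:**
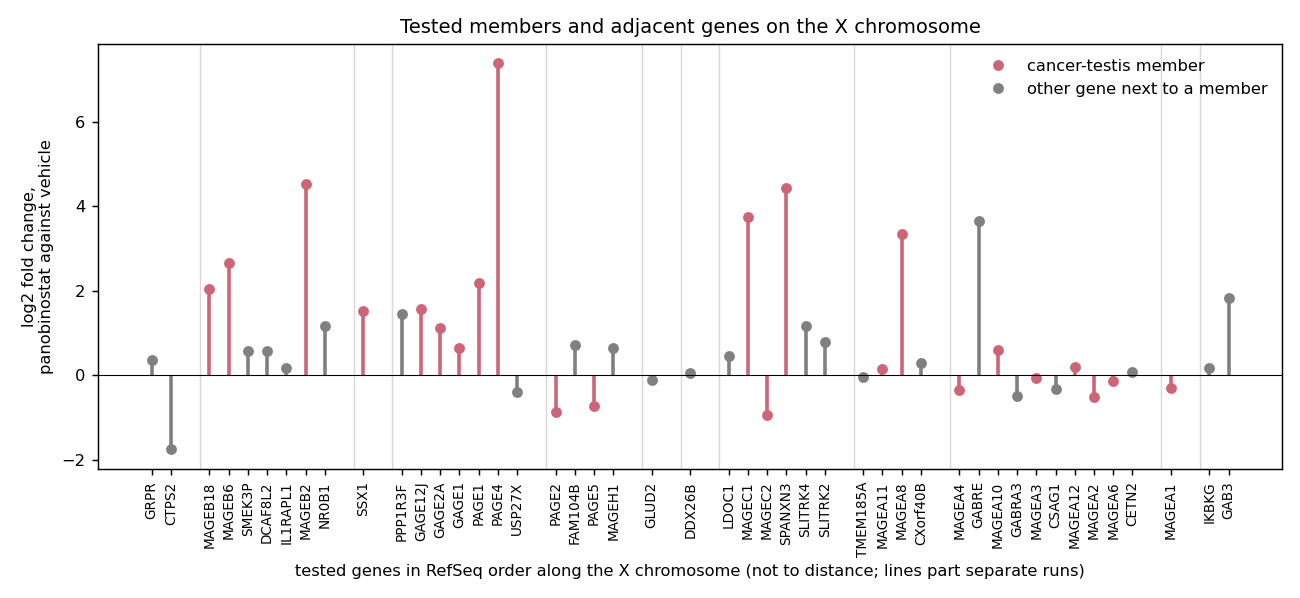
Log2 fold change of tested members (red) and of tested genes next to a member (grey), in RefSeq order along the X chromosome, with grey lines between runs and no scale of distance. Genes that are side by side can point in opposite directions, as MAGEC1 at 3.75 and MAGEC2 at -0.94 do. The height of PAGE4 and SPANXN3, with 0 and 2 vehicle counts, depends on the prior count of the fit.

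Cancer-testis genes outside these families also included both directions. Of the other X-linked cancer-testis genes 11 were tested, 5 higher and 3 lower, beside 41.8% and 41.0% of all genes tested. Of the 11, 4 passed the filter through the panobinostat libraries alone, and the 6 that passed it in all libraries held 1 higher and 3 lower. IL13RA2, a decoy receptor for interleukin 13, fell from 1050.1, 1096 and 1159 CPM to 430.1, 435 and 457 CPM (log2 -1.32, SE 0.041). SAGE1 fell from 24.6 to 17.4 CPM and CSAG1 from 43.9 to 35.1 CPM. PASD1 rose from 0.327 to 1.87 CPM (log2 2.53, SE 0.25), PLAC1, a placental gene, from 0.794 to 1.96 CPM (log2 1.30, SE 0.19), and FMR1NB from 4 to 37 counts. TEX13A went from 0 vehicle counts to 43, at least 5.14-fold higher over the same floor.

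Of the autosomal germ cell genes 14 were tested, 8 higher and 6 lower. Here 5 of the 14 could pass only through panobinostat, DMRT1 and TEX14 among them, and the 8 past the filter in all libraries held 3 higher and 5 lower, beside 37.7% and 44.6% of all such genes. DMRT1, a regulator of the male germ line, had 0 vehicle counts and 83 with panobinostat, at least 9.74-fold higher, and TEX14, TEX15 and SPA17 rose by log2 3.02, 2.97 and 1.14. ROPN1 and ROPN1B, genes of the sperm tail that melanomas also express, fell to 0.074 and 0.343 CPM from 2.23 and 2.06 CPM (log2 -4.81 and -2.57). ROPN1, with 3, 4 and 1 panobinostat counts, passed the filter through the vehicle libraries alone and could be tested only by being lower. Sequence shared by ROPN1 and ROPN1B was not measured. CTCFL, the germ cell paralog of CTCF, had 1 vehicle count and 11 panobinostat counts (ratio 11.7, exact 95% interval 1.70 to 504) and was not tested. Of 11 cancer-testis genes that dividing somatic cells also use, 8 were lower and 2 higher, beside 41.0% and 41.8% of all genes tested. Their median was -1.46, and the mitotic genes NUF2 (-2.07), KIF2C (-1.77) and PBK (-1.92) were among the lower ones.

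The MAGE genes that are expressed in most tissues did not share 1 direction: of 8 tested 3 were higher, 2 lower and 3 not past the threshold (median -0.018). MAGED2 fell from 124, 123 and 127 CPM to 47.1, 44.2 and 50.7 CPM (log2 -1.40, SE 0.050), and MAGEL2, an imprinted gene, rose from 8, 1 and 1 to 48, 59 and 54 counts. Among partners of MAGE and PRAME proteins 6 were higher and 6 lower of 13 (median -0.092). Beside both lists, 41.8% of all genes tested were higher and 41.0% lower. In each list 1 higher gene, MAGEL2 and TRIM31, passed the filter through the panobinostat libraries alone and could be tested only by being higher. The 7 MAGE genes past it in all libraries held 2 higher and 2 lower, and the 12 partners 5 and 6. Of all such genes 37.7% were higher and 44.6% lower. TRIM28, the ligase partner of MAGEA3, MAGEA6 and MAGEC2, went from 483 to 400 CPM (log2 -0.27, SE 0.046), and CUL2, the cullin of PRAME, from 75.6 to 109 CPM (log2 0.53, SE 0.049).

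Genes tied to the silencing of germ cell promoters, for or against it, were read beside all genes of 10 CPM or more. Of those, 35.6% were higher and 49.6% lower. Of 11 genes of DNA methylation and its readers 9 were lower and 0 higher by edgeR (1, MBD1, was higher at an unadjusted p under 0.05 and by DESeq2), with a median log2 fold change of -0.73. The list also holds TET1, TET2 and TET3, which act to remove methylation. TET1 (-0.41) and TET2 (-0.73) are among the lower genes, and TET3 did not pass the threshold. DNMT1, which copies methylation at replication, fell from 340.3, 336 and 315 CPM to 177, 178 and 183 CPM (log2 -0.88, SE 0.039; edgeR adjusted p = 9.05e-13). Its guide UHRF1 fell from 60.7, 58.9 and 54.8 CPM to 18.7, 20.2 and 20.02 CPM (log2 -1.57, SE 0.058). The de novo enzymes DNMT3A and DNMT3B were at log2 -1.02 and -1.18, both lower.

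Of the 13 PRC1.6 subunits 5 were higher and 7 lower (median -0.27). PCGF6 and L3MBTL2, which are specific to the complex, were lower at log2 -1.16 and -1.07, while E2F6, its DNA-binding member at E2F letters, rose by 0.28. Of 10 genes of H3K9 methylation 8 were lower and 1 higher (median -0.51), with SUV39H1 at -1.59 and SETDB1 at -0.44. HDAC1 rose from 198 to 244 CPM and HDAC3 from 65.6 to 102 CPM, while HDAC2 fell from 164 to 131 CPM. None of these values was related to a member by a test, and methylation was not measured.

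Facts of the libraries bear on all of these values. Totals were 32293283 to 38944399 counts. The libraries of a group differed by more than sampling noise, with a chi-square per degree of freedom of 1.90 to 9.14 within and 312 to 359 between groups. The melanocyte markers SOX10, ERBB3, S100B, MITF and PAX3 were present and lower with panobinostat, PMEL rose from 0.628 to 194 CPM and TYRP1 from 0.235 to 0.448 CPM, DCT had 12 and 31 counts, MLANA and TYR were at 0 in all 6 libraries, and the summed level of the 10 markers was 1905 to 2043 CPM with vehicle and 704 to 775 CPM with panobinostat. Of 7 leukocyte markers MS4A1 was at 0, PTPRC was at 0 with vehicle, and the sum of 40.0 to 44.8 against 91.8 to 95.1 CPM was mostly CD68. Epithelial markers summed to 166 to 174 against 325 to 344 CPM, 4 of 4 tested being higher, beside 41.8% of all genes tested. Of those 4, 2 passed the filter through the panobinostat libraries alone and could be tested only by being higher. Of the markers of testis somatic cells INSL3 and CYP17A1 were at 0 with vehicle, and the sum of 3.60 to 4.61 against 13.0 to 14.9 CPM moved with SOX9. The part of these shifts in the members' values was not tested.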

How the data were processed

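Bulk RNA of A375 cells was sequenced in 3 vehicle and 3 panobinostat libraries. The authors deposited 1 table of whole-number read counts per gene symbol, not normalized. The name of the deposited table calls them STAR gene counts. For the genome build, annotation, read length and strand setting: not given in the sources used here. The table has 25435 lines, of which 92 are spike-in lines with 0 counts and 28 carry date-like names in place of symbols. The spike-in lines were left out and 25343 gene lines kept. Library totals were 32293283 to 38944399 counts, at which 3 counts are worth 0.0774 to 0.0928 CPM.

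Counts were tested with edgeR 4.0.16 (R 4.3.3): filterByExpr, TMM scaling, robust quasi-likelihood F test, Benjamini-Hochberg adjustment over 15499 genes, threshold 0.05. CPM values use the TMM-scaled totals. The SE is the size of the log2 fold change divided by the square root of F. A gene at 0 in vehicle was given a bound from a floor of 3 counts per library, and one with 1 to 3 vehicle counts a ratio with an exact conditional 95% interval, which covers counting error only. On counts simulated for panobinostat against vehicle for 15499 genes, of which 14358 passed the filter, edgeR called 66, 92, 100 and 100% of genes changed 1.25, 1.5, 2 and 4-fold, and 10.95% of its calls were unchanged genes. Only 200 genes were changed in the simulation, all with a vehicle mean of at least 1 CPM. In the data 82.8% of genes were called, so these rates need not hold there, nor for members under 1 CPM. Alternatives were 3 other scalings, 2 other filters, DESeq2 1.42.0, a replicate block, summed copies and leaving out each library. Figures were drawn with matplotlib 3.10.9 in Python 3.11.15.

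The families and the gene lists were chosen with earlier results of these data known, and the rule that finds the members reads symbols only. Each member with a mean of at least 1 CPM in either group is named with its 6 values, each other tested member with its log2 change or, at 2 or fewer vehicle counts, a ratio or bound, and an untested one where a group's counts sum to 10 or more. From the lists, up to 4 called genes per direction are named, and DNMT1, DNMT3A, DNMT3B, UHRF1, CTCFL, HDAC1, HDAC2 and HDAC3 whatever their value. Other named genes were chosen after their values were seen. Shared sequence was measured on GENCODE v29 transcripts by 100-base windows, in place of the protein alignment first planned, and promoters are from RefSeq (GRCh38.p14).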

Additional observations from a re-analysis of the deposited data

How the results depend on the processing

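Of the values of single members under the 14 alternatives, 296 kept their direction and side of the threshold, 21 lost the call, 1 gained it and 0 changed direction with a call. The number of members tested follows the filter: 47 members (21 higher, 8 lower, median log2 fold change of tested members 1.245) with no filter and 13 (6 higher, 5 lower, median 0.03445) with at least 5 CPM in 3 libraries. Upper quartile scaling gave 16 higher and 5 lower with a median of 0.7449, and moved the median of all genes to 0.1285 and the higher share of all calls from 50.45% to 57.28%. The log2 fold change of ATF7IP, not past the threshold in the reported fit, was 0.1082 under upper quartile scaling and 0.08275 under the 5 CPM filter. Leaving out 1 library at a time gave 15 to 19 members higher, 5 to 7 lower and a median of 0.6574 to 1.186, with 25 to 27 members tested. That median was 0.9775, 1.151 and 1.151 without vehicle replicates 1, 2 and 3 and 1.186 without panobinostat replicate 1, as members with few counts entered the test.

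Same-numbered libraries did not deviate together (correlations -0.0776, -0.0576 and -0.141). That gives no sign that the numbers pair them, but with 3 libraries per group it cannot exclude pairing. With the replicate block 15 members were higher and 5 lower, with a median log2 fold change of tested members of 0.6325. Depth limits the 23 members with too few counts for a test, and a missing call there does not show that a gene did not change.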
